A study of Mus musculus with 16 samples.

Results

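Brain endothelial and barrier genes were followed here in the hippocampus of 16 female 3xTG-AD mice, which carry mutant APP, tau and presenilin genes as a model of Alzheimer's disease. The genes were chosen as a list of 30 symbols that mark brain endothelial cells or build the blood-brain barrier. For each, the probe set with the highest mean over the 16 arrays was used among those that the platform annotation ties to a single gene symbol. That gave 28 of the 30 genes, out of 18193 genes with such a probe set. Ly6c1 and Ly6a had none and have no value here. Of the 28, 24 had a mean above the level used as a filter, 3.58 log2 units, and entered the tests with 12242 other genes, 12266 in all.

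All animals were 14 months old and carried the 3xTG-AD alleles, so no wild-type animal enters any comparison. From 10 months of age, 8 animals (control 1 to 8) ate a control diet, and 8 (PIO 9 to 16) ate a diet with pioglitazone at 84 ppm for about 14 weeks, which gave a daily dose of about 18 mg per kg. Pioglitazone is a thiazolidinedione, a drug class that activates the nuclear receptor PPAR gamma. Each array held total RNA from the hippocampus of 1 animal, so the animal is the replicate. Arrays also carry a number. It lies between 1 and 6 for control 1 to 4 and for PIO 9 and 10, and between 10 and 24 for control 5 to 8 and for PIO 11 to 16. No source used here says what this number stands for. It bears on every result below, because the arrays numbered 1 to 6 hold only 2 PIO animals.

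The deposited log2 expression values had array medians of 5.65 to 5.76, and arrays correlated at 0.994 to 0.998. They are relative to each probe set, so levels were compared between animals and not between genes. Precision is limited by how many arrays there are. The tissue was whole hippocampus, of which endothelial cells are a small part, so fewer endothelial cells and less RNA per endothelial cell cannot be told apart in any result here. All 9 hippocampal neuron markers with a probe set were above the filter. Of other cells of the vessel wall, 9 of 12 pericyte markers were above it, among them Pdgfrb and Rgs5, and 5 of 8 smooth muscle markers, among them Acta2. The smooth muscle genes Myh11, Cnn1 and Des and the pericyte genes Anpep, Cd248 and Ndufa4l2 were below it. Hba-a1, the alpha globin of red cells, was at a mean of 2.30 and below it, and ran only from 2.26 to 2.34 over all arrays. The listed beta globins Hbb-b1 and Hbb-bt had no single-symbol probe set, so these values do not show how much red cell RNA was present. Of 6 blood cell markers with a probe set, 1 was above the filter, the B cell gene Ms4a1 at 3.81. Single PIO animals of arrays 10 to 24 exceeded that level in other blood genes. The neutrophil genes S100a8 and S100a9 were at 6.28 and 4.07 in PIO 11 and at 8.26 and 6.81 in PIO 12, and the red cell gene Alas2 was at 4.18 in PIO 15. Their part in the results was not tested.

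Brain capillaries differ from those of other organs. Their endothelial cells are sealed to each other by tight junctions, take up little fluid by vesicles, and carry transporters that pump drugs out and let selected molecules in. Signals from neighbouring neurons, astrocytes and pericytes, among them Wnt ligands, angiopoietin and platelet-derived growth factor, keep this state, and vascular leakage has been described in Alzheimer's disease. The genes below are ordered by role: junctions and adhesion, receptors and their partners, transporters, transcription factors, and surface or secreted markers.

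Proximal promoters of 3 of these genes are shown because Emcn was the one of these genes whose diet difference passed the test in arrays 1 to 6, and Tek and Cldn5 stand for the receptor and the junction genes that were low in the same animals. Each line holds the 250 bases before the RefSeq start of the gene, 5′ to 3′ on the plus strand of GRCm38.p6. Capitals mark a match to the ETS factor motif CAGGAAG or its other strand CTTCCTG. Emcn lies at chr3:137340828-137341077, Tek at chr4:94739039-94739288 and Cldn5 at chr16:18776597-18776846.
Emcn: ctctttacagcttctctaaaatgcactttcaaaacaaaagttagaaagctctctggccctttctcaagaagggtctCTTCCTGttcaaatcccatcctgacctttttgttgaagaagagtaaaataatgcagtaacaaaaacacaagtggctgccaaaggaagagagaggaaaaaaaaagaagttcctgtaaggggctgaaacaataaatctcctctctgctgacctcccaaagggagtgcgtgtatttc
Tek: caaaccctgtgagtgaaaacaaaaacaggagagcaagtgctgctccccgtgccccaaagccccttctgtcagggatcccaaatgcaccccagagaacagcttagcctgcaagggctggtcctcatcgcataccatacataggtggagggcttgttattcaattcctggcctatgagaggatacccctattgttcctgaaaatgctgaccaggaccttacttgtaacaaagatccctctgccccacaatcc
Cldn5: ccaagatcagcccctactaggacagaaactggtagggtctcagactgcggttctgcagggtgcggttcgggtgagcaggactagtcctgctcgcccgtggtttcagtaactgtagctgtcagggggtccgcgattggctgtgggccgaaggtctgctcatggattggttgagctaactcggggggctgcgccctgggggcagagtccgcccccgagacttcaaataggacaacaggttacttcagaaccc
ETS factors such as Erg and Fli1 are regulators of endothelial genes. The RefSeq promoter table held 27 windows for 20 of the 30 genes. The ETS motif was found in 8 of those 27 windows and in 10.8% of all 32851 windows of the same length. The 8 belong to Egfl7 and Abcg2 with 2 each and to Emcn, Robo4, Ctla2a and Itm2a with 1 each. In the Emcn window the match begins at position -174 from the start, and the Tek and Cldn5 windows have none. A second ETS form, CCGGAAG or CTTCCGG, was in 0 of 27 windows and 6.91% of all. The SOX motif ACAATGG or CCATTGT was in 0 of 27 and 3.02% of all, and the TCF/LEF motif CTTTGAA or TTCAAAG was in 1, that of Abcb1a, and 4.46% of all. The ETS forms share the letters GGAAG, and genes with several windows share sequence or locus. These matches describe letters in a window and say nothing about binding.

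The first comparison asked whether the PIO diet moved these genes. None of the 24 passed the adjusted threshold of 0.05 in limma's test with Benjamini-Hochberg adjustment, as for all 12266 genes, of which 0 (0%) were called. Icam2 and Tek, 2 of the 24, had an unadjusted p under 0.05, both lower with PIO, which is 8.33% against 7% of all genes. Of the 24, 11 were lower and 13 higher, where 47.3% of all genes were lower, and their median difference was 0.025 log2 units against 0.0045 over all genes. By these counts the genes as a group stood close to the background.

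Icam2, an adhesion molecule of endothelial junctions, ran from 4.53 through a median of 4.65 to 4.88 in the 8 controls. With PIO it ran from 3.99 through 4.52 to 4.78. The groups overlapped, and the 4 lowest PIO values lay below all controls. The difference was -0.30 log2 units (SE 0.11, n = 8 and 8; limma adjusted p = 0.681). Icam2 was also the tested gene closest to the filter, at a mean of 4.54. Tek, the Tie2 receptor for angiopoietins, ran from 6.71 through 6.99 to 7.54 in controls and from 5.94 through 6.67 to 7.13 with PIO. Its difference was -0.44 (SE 0.17; limma adjusted p = 0.681), and the lowest 2 values were those of PIO 9 and 10.

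In the other roles the smallest unadjusted p belonged to Slco1a4, Ctla2a and Sox18. Slco1a4, an organic anion transporter of the barrier, ran from 8.76 through 8.98 to 9.29 in controls and from 8.15 through 8.99 to 9.07 with PIO, a difference of -0.24 (SE 0.14; limma adjusted p = 0.762). Ctla2a, which encodes a cathepsin inhibitor, ran from 6.35 through 6.89 to 7.15 and from 6.55 through 7.11 to 7.62, a difference of 0.24 (SE 0.14; limma adjusted p = 0.763). Sox18, an endothelial transcription factor, ran from 6.55 through 6.85 to 7.27 and from 6.66 through 7.04 to 7.59, a difference of 0.23 (SE 0.15; limma adjusted p = 0.793). The diets overlapped in all 3. The SD among PIO animals was larger than among controls in 22 of the 24 genes. The same count was not made over all genes, so it does not set these genes apart. Emcn had an SD of 0.50 with PIO and 0.19 in controls, and Vwf had 1.40 and 0.41.

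**Figure D1:**
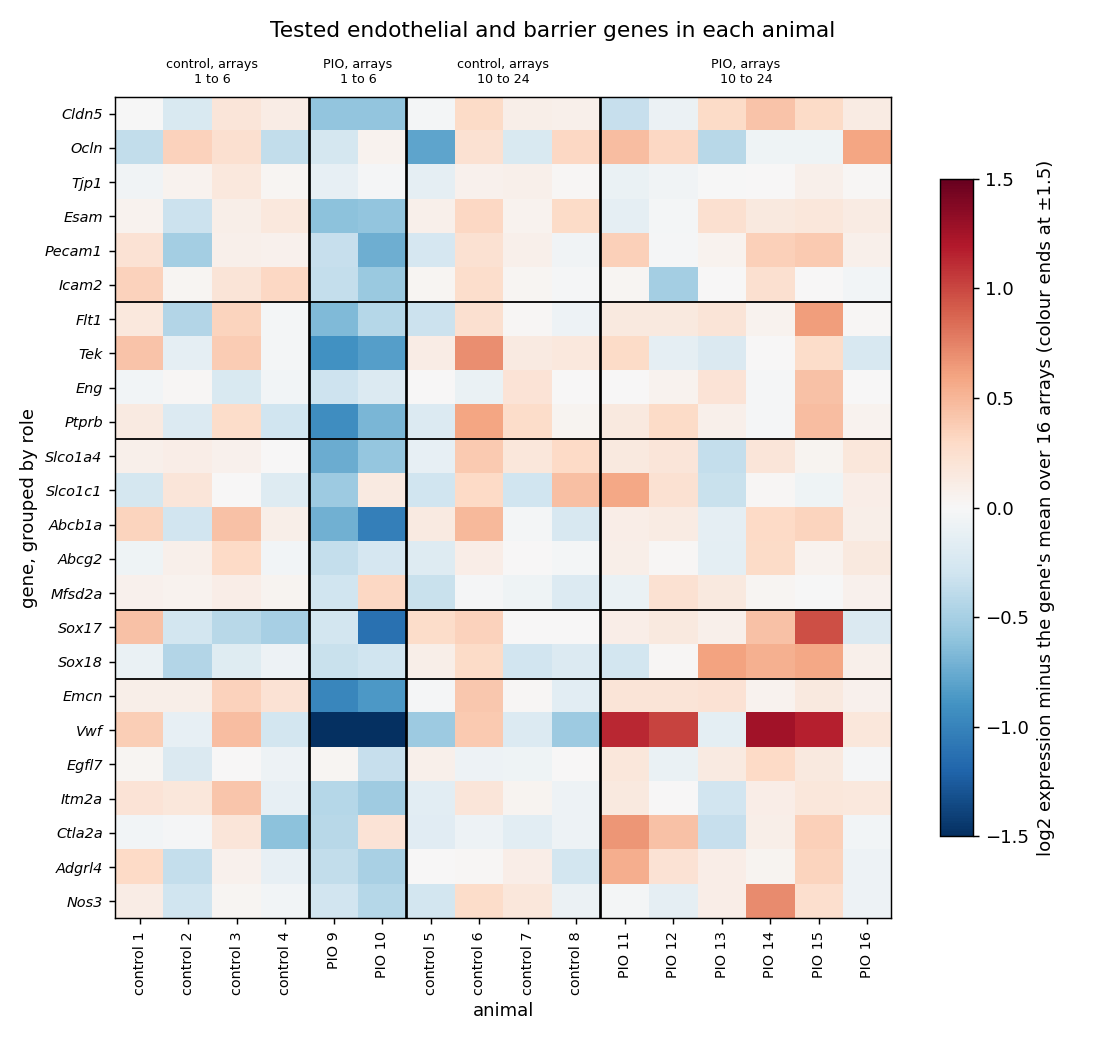
Level of the 24 tested genes (rows, grouped by role) in each animal (columns, grouped by diet and array number), as log2 expression minus the gene's mean over 16 arrays, with the colour scale ending at 1.5 on either side. The columns of PIO 9 and PIO 10 are the ones with low values in most rows, with means over the 24 genes of -0.53 and -0.50.

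PIO 9 and 10 were the animals that stood apart. Averaged over the 24 genes, as the difference from each gene's mean, PIO 9 stood at -0.53 and PIO 10 at -0.50 log2 units, and the other 14 animals lay between -0.13 and 0.30. PIO 9 was below the gene's mean in 23 of 24 genes (55.7% of all genes) and PIO 10 in 20 (58% of all genes). They held the lowest of 16 values in 10 and 9 of the genes, while over all genes they held the lowest value in 5.45% and 8.45%. In 11 of the 24 genes (45.8%) both lay below all 14 other arrays: Cldn5, Esam, Tek, Ptprb, Slco1a4, Abcb1a, Abcg2, Emcn, Vwf, Itm2a and Adgrl4. Among all 12266 genes that was so in 265, or 2.16%. Against the 4 control arrays numbered 1 to 6 alone, both lay below in 12 of 24, the same 11 and Icam2 (10.3% of all genes), and both lay above in 0 of 24 (4.17% of all genes). These 2 animals are the whole PIO group of arrays 1 to 6, so what they have in common beside the diet and the array number was not tested.

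With the arrays numbered 1 to 6 set against those numbered 10 to 24, and the diet in the model, 23 of 24 genes were lower in arrays 1 to 6, where 50.8% of all genes were. The exception was Mfsd2a, the lipid transporter that keeps vesicle traffic low in brain capillaries, at 0.10 log2 units higher (SE 0.09, n = 6 and 10). The median difference was -0.28. None of the 24 passed the adjusted threshold of 0.05 in limma's test, and 1 of 12266 genes did (0.00815%; Usp2, a deubiquitinase). An unadjusted p under 0.05 was found for 12 of 24, all lower, where 4.48% of all genes were lower at that level and 10.2% differed in either direction. The 12 were Esam, Ptprb, Slco1a4, Sox17, Tek, Eng, Cldn5, Sox18, Pecam1, Emcn, Vwf and Abcb1a. Their smallest adjusted p was 0.237, that of Esam, at -0.40 (SE 0.10).

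The same comparison was then made within each diet. Among the 8 controls, 13 of 24 genes were lower in arrays 1 to 6 (41.3% of all genes), none passed the adjusted threshold of 0.05 in limma's test (0.00815% of all genes) and 0 an unadjusted p under 0.05 (5.62% of all genes). The median was -0.021. Among the 8 PIO animals all 24 were lower (58.8% of all genes), with a median of -0.60. There 19 passed an unadjusted p under 0.05, all lower (8.05% of all genes), and 2 of 24 an adjusted p of 0.05 (0.0571% of all genes): Emcn fell by 1.06 (SE 0.11; limma adjusted p = 0.000946) and Vwf fell by 2.83 (SE 0.36; limma adjusted p = 0.00549). The call on Emcn held when each animal was left out in turn, and that on Vwf was lost without PIO 9 (adjusted p = 0.0700) or PIO 10 (0.105). Without PIO 11, 4 of the genes were called, and no count over all genes was made in that fit.

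Seen from the diet, PIO animals of arrays 1 to 6 were lower than the 4 controls of those arrays in 23 of 24 genes (60.6% of all genes), with a median of -0.50. An unadjusted p under 0.05 was found for 14 of 24, all lower (3.73% of all genes), and 1 passed the adjusted threshold of 0.05 in limma's test, Emcn (0.0326% of all genes, 4 genes). In arrays 10 to 24 none of the 24 was called (0% of all genes) and 2 passed an unadjusted p under 0.05, Vwf and Mfsd2a, both higher (8.84% of all genes in either direction). There 6 of 24 were lower (40.6% of all genes), and the median was 0.088. The difference between these diet differences, an interaction term in the same fit, was below 0 in all 24 genes (64.3% of all genes). It passed an unadjusted p under 0.05 in 14, all below 0 (5.36% of all genes), and an adjusted p of 0.05 in 2, Emcn and Vwf, of 3 genes in all (0.0245%). These tests within ranges and of the interaction were chosen after the values were seen, and those in arrays 1 to 6 rest on 2 PIO animals. Without control 2 or without PIO 13, 3 of the genes were called in arrays 1 to 6, and no count over all genes was made in those fits. Over all genes, the interaction count of 3 ran from 0 to 4 with 1 animal left out. In the interaction 0 of the genes were called without control 5, control 7 or PIO 9, and 1 without control 1, 2, 3 or 8 or PIO 10, 11, 12, 14 or 15.

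**Figure D2:**
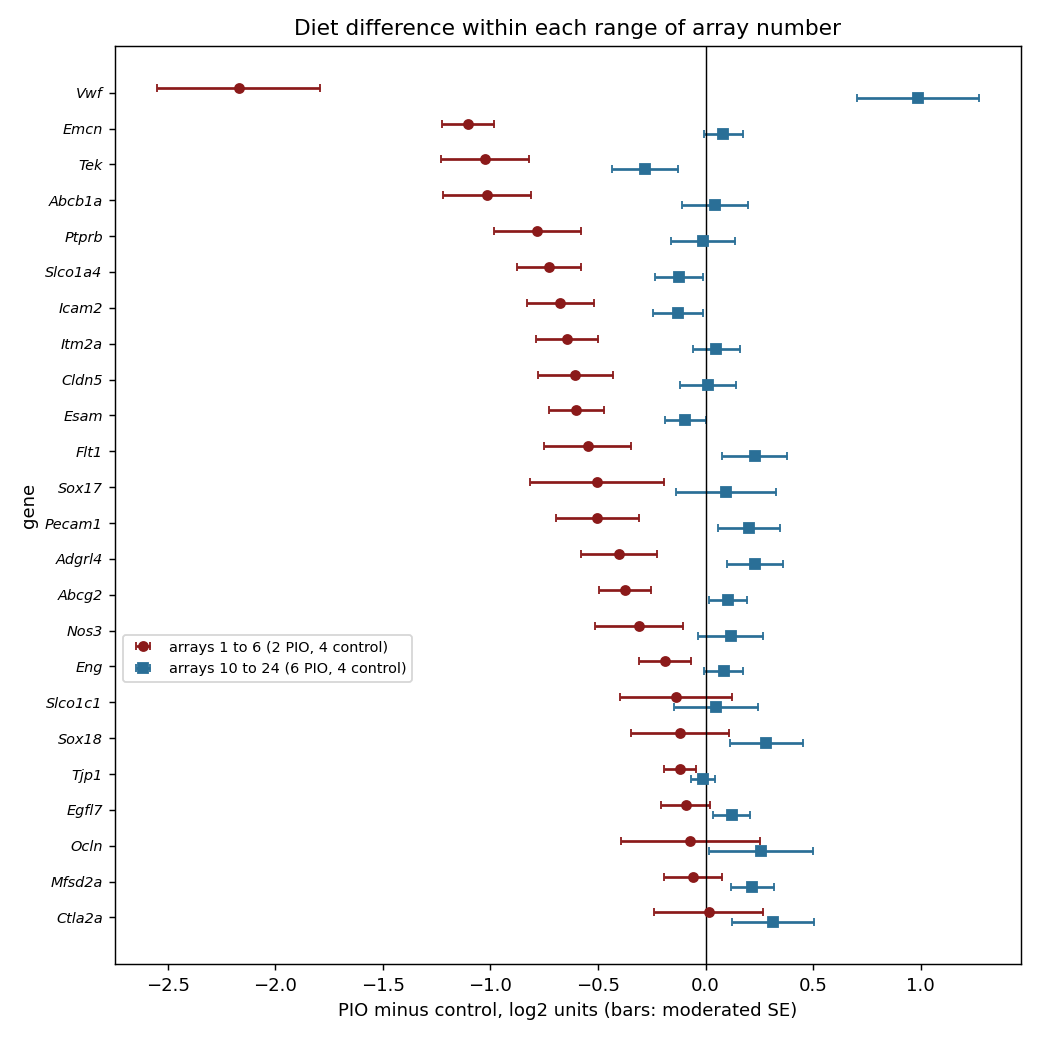
Difference PIO minus control in log2 units (horizontal axis) for each of the 24 tested genes (vertical axis), within arrays 1 to 6 (red circles, 2 PIO and 4 control animals) and within arrays 10 to 24 (blue squares, 6 PIO and 4 control animals), with moderated standard errors. The red points lie left of 0 in 23 of 24 genes with a median of -0.50, and the blue points lie around 0 with a median of 0.088.

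Of the 6 junction and adhesion genes tested, 4 were lower with PIO in arrays 1 to 6 at an unadjusted p under 0.05 (3.73% of all genes), and 0 passed that level in arrays 10 to 24 (8.84% of all genes in either direction). Cldn5 encodes claudin 5, the main sealing protein of the barrier. It measured 9.32, 9.09, 9.50 and 9.43 in control 1 to 4 and 9.29, 9.60, 9.41 and 9.40 in control 5 to 8. In PIO 9 and 10 it measured 8.72 and 8.73, below every other array, and in PIO 11 to 16 it ran from 8.97 through 9.52 to 9.75. The diet difference was -0.61 (SE 0.17; limma adjusted p = 0.573) in arrays 1 to 6 and 0.01 (SE 0.13; limma adjusted p = 0.993) in arrays 10 to 24.

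Esam, an adhesion molecule of endothelial junctions, followed the same order. It measured 7.97, 7.61, 8.01 and 8.09 in control 1 to 4, 8.00, 8.23, 7.97 and 8.22 in control 5 to 8, and 7.31 and 7.33 in PIO 9 and 10. In PIO 11 to 16 it ran from 7.79 through 8.06 to 8.17, within the range of the controls. Its diet difference in arrays 1 to 6 was -0.60 (SE 0.13; limma adjusted p = 0.339). Icam2 stood at 4.18 and 3.99 in PIO 9 and 10, below control 1 to 4 at 4.88, 4.57, 4.73 and 4.85, and the lowest of PIO 11 to 16, at 4.03, lay between them. Pecam1, the CD31 adhesion molecule, measured 6.51, 5.78, 6.37 and 6.36 in control 1 to 4, 6.05, 6.52, 6.37 and 6.24 in control 5 to 8, and 5.94 and 5.56 in PIO 9 and 10. In PIO 11 to 16 it ran from 6.27 through 6.51 to 6.68. Control 2 thus lay between PIO 9 and 10, and the other 13 animals lay above both.

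Ocln and Tjp1, which encode occludin and the scaffold ZO-1, did not follow the pattern. Ocln was at 7.53 and 7.83 in PIO 9 and 10, inside the range of control 1 to 4 from 7.42 to 8.14. Tjp1, a gene expressed in many cell types, ran from 11.84 to 12.14 over all 16 arrays. Neither passed an unadjusted p under 0.05 in any comparison. Cdh5, which encodes the VE-cadherin of adherens junctions, was just below the filter at a mean of 3.57 and was not tested. It measured 3.11 and 3.07 in PIO 9 and 10 and 3.04 to 4.00 in the others.

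Among the 7 receptors and their partners, Kdr, Tie1 and Robo4 had means of 2.14, 3.14 and 2.71, below the filter, and were not tested. Kdr is the main receptor for VEGF in endothelium, and Robo4 is a guidance receptor of vessels. Tie1, the partner of the Tie2 receptor, measured 2.66 and 2.37 in PIO 9 and 10 and 2.90 to 3.83 in the other 14.

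Tek measured 7.28, 6.71, 7.23 and 6.81 in control 1 to 4 and 6.95, 7.54, 6.98 and 7.00 in control 5 to 8. PIO 9 and 10 measured 5.94 and 6.02, and PIO 11 to 16 ran from 6.60 through 6.78 to 7.13. The diet difference was -1.02 (SE 0.20; limma adjusted p = 0.261) in arrays 1 to 6 and -0.28 (SE 0.15; limma adjusted p = 0.620) in arrays 10 to 24, so Tek was lower on the PIO side in both. Ptprb encodes VE-PTP, the phosphatase that holds Tie2 signalling down. It measured 8.32, 7.98, 8.46 and 7.88 in control 1 to 4 and 7.98, 8.78, 8.47 and 8.23 in control 5 to 8. In PIO 9 and 10 it measured 7.26 and 7.50, below every other array, and in PIO 11 to 16 it ran from 8.16 through 8.30 to 8.64.

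Flt1, a VEGF receptor that also acts as a decoy, was at 6.69 and 6.92 in PIO 9 and 10. Control 2 at 6.91 lay between them, and the remaining controls ran from 7.03 to 7.68. Eng, the endoglin co-receptor for TGF beta ligands, measured 8.06, 8.11, 7.87 and 8.06 in control 1 to 4 and 8.11, 8.00, 8.31 and 8.10 in control 5 to 8. In PIO 9 and 10 it was at 7.79 and 7.89 and in PIO 11 to 16 it ran from 8.08 through 8.13 to 8.54, so control 3 fell between the 2 animals.

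**Figure D3:**
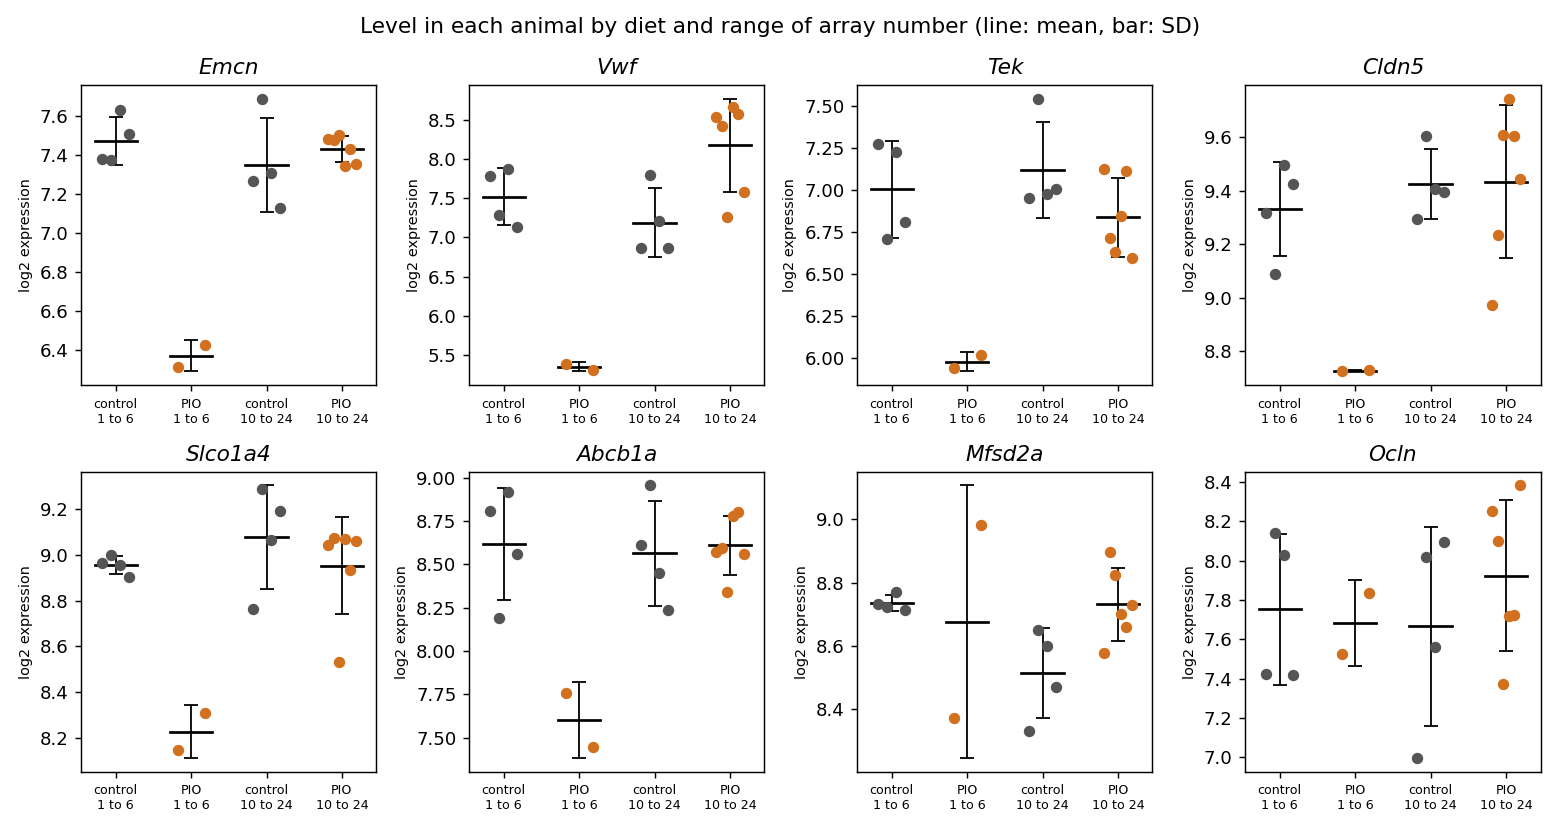
Log2 expression of individual endothelial genes in each animal (points), by diet and array number, with the mean as a line and the SD as a bar. For Emcn the 2 PIO animals of arrays 1 to 6 lie at 6.31 and 6.43 and all other animals between 7.13 and 7.69.

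Of the barrier transporters, Slco1a4, Abcb1a and Abcg2 were lower in PIO 9 and 10 than in all other arrays, and Slco1c1 and Mfsd2a were not. Slco1a4 measured 8.96, 9.00, 8.95 and 8.90 in control 1 to 4, 8.76, 9.29, 9.06 and 9.19 in control 5 to 8, and 8.15 and 8.31 in PIO 9 and 10. It ran from 8.53 through 9.05 to 9.07 in PIO 11 to 16. The diet difference in arrays 1 to 6 was -0.73 (SE 0.15; limma adjusted p = 0.271).

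Abcb1a encodes the P-glycoprotein efflux pump, which also moves amyloid beta. It measured 8.81, 8.19, 8.92 and 8.56 in control 1 to 4, 8.61, 8.96, 8.45 and 8.24 in control 5 to 8, and 7.76 and 7.45 in PIO 9 and 10. In PIO 11 to 16 it ran from 8.34 through 8.58 to 8.80. The diet difference was -1.02 (SE 0.20; limma adjusted p = 0.261) in arrays 1 to 6, or 2.02-fold lower, and 0.04 (SE 0.15; limma adjusted p = 0.967) in arrays 10 to 24. Abcg2, the other main efflux pump, was at 9.42 and 9.52 in PIO 9 and 10 and at 9.57 to 10.08 in the rest, a smaller gap.

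Slco1c1, which carries thyroxine, was at 10.58 in PIO 9, the lowest of 16, and at 11.26 in PIO 10, inside the other animals' range. Mfsd2a was at 8.37 and 8.98, of which the second was the highest of the 16. In arrays 10 to 24 it was 0.22 higher with PIO (SE 0.10; limma adjusted p = 0.561). Control 5 to 8 measured 8.33, 8.65, 8.60 and 8.47 and PIO 11 to 16 ran from 8.58 through 8.72 to 8.90, so the groups overlapped.

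The transcription factors Sox17 and Sox18 drive arterial and vascular identity. Sox17 measured 6.96, 6.24, 6.10 and 6.02 in control 1 to 4 and 6.80, 6.87, 6.52 and 6.53 in control 5 to 8. It was at 6.25 and 5.40 in PIO 9 and 10 and ran from 6.31 through 6.64 to 7.49 in PIO 11 to 16. Only PIO 10 stood below the controls. Sox18 measured 6.89, 6.55, 6.81 and 6.91 in control 1 to 4, 7.08, 7.27, 6.71 and 6.79 in control 5 to 8, and 6.66 and 6.68 in PIO 9 and 10. It ran from 6.71 through 7.29 to 7.59 in PIO 11 to 16. Sox17 and Sox18 differed between the array ranges at an unadjusted p under 0.05 (-0.60, SE 0.20, and -0.34, SE 0.15; limma adjusted p = 0.337 and 0.438), but neither did between the diets in arrays 1 to 6.

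The surface and secreted markers held both genes of the interaction call. Emcn encodes endomucin, a sialomucin of capillary and venous endothelium. It measured 7.38, 7.37, 7.63 and 7.51 in control 1 to 4 and 7.27, 7.69, 7.31 and 7.13 in control 5 to 8. In PIO 9 and 10 it measured 6.31 and 6.43, and in PIO 11 to 16 it ran from 7.35 through 7.45 to 7.50. The gap between these 2 animals and the nearest other was larger than the whole range of the rest. In arrays 1 to 6 Emcn fell with PIO by 1.11 log2 units (SE 0.12, n = 2 and 4), or 2.15-fold (limma adjusted p = 0.00201). This call held in each of the 16 fits that left out 1 animal, with adjusted p up to 0.0391. In arrays 10 to 24 the difference was 0.08 (SE 0.09; limma adjusted p = 0.837). The interaction was -1.19 (SE 0.15; limma adjusted p = 0.0150). It was not called without control 5 (adjusted p = 0.0570), control 7 (0.0582) or PIO 9 (0.101), in the largest class of label codes alone (0.484) or with the leptomeningeal list as a covariate (0.216).

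Vwf, the von Willebrand factor stored in endothelium of larger vessels, spread more than any other of the 24 genes, with an SD of 1.00 over 16 arrays. It measured 7.78, 7.29, 7.88 and 7.13 in control 1 to 4 and 6.87, 7.80, 7.21 and 6.87 in control 5 to 8. PIO 9 and 10 measured 5.39 and 5.31, and PIO 11 to 16 ran from 7.27 through 8.48 to 8.67. So Vwf was low in PIO animals of one range and, on average, high in those of the other. The diet difference was -2.17 (SE 0.38; limma adjusted p = 0.0991), or 4.5-fold lower, in arrays 1 to 6 and 0.99 (SE 0.28; limma adjusted p = 0.388), or 1.98-fold higher, in arrays 10 to 24. The interaction was -3.16 (SE 0.48; limma adjusted p = 0.0453). Its call was close to the threshold: it was lost in 12 of 16 fits that left out 1 animal and in 5 of 10 other settings, with adjusted p up to 0.159 and 0.672.

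Itm2a and Adgrl4 were the other markers with both animals below all others. Itm2a, a membrane protein of brain endothelium, was at 11.22 and 11.11 against 11.35 to 12.06. Adgrl4, an adhesion receptor known in vessel sprouting, was at 7.25 and 7.13 against 7.27 to 8.17. Egfl7, a secreted factor of vessel formation, was at 8.74 and 8.36. Nos3, the endothelial nitric oxide synthase, was at 6.11 and 5.98, and control 2 and control 5 at 6.11 and 6.13 lay near the first. Ctla2a was at 6.55 and 7.17, inside the controls' range from 6.35 to 7.15 in the first and just above it in the second.

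Other probe sets of the same genes were read on the same arrays, so they are no independent check. Of 10 genes with more than 1 single-symbol probe set, all probe sets had a lower mean in PIO 9 and 10 than in the other 14 for 7: Abcb1a, Adgrl4, Egfl7, Eng, Flt1, Itm2a and Sox17. Flt1 and Egfl7 had 4 probe sets each, and those of Flt1 were lower by 0.56 to 1.30 log2 units. For Ptprb 2 of 3 were lower, and for Ocln and Cdh5 1 of 2. The counts include the probe set used above, and the same share over all genes was not computed. Some of these probe sets had a mean below the filter: 1 of Eng (3.26), the Ptprb one that was not lower (2.17) and both of Cdh5 (2.01 and 3.57).

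Levels moved together between animals. With the diet means removed, the median Pearson r over the 276 pairs of the 24 genes was 0.55, and over all 75221245 pairs of tested genes it was 0.024. There were 160 pairs above 0.5 and 26 below 0. Without PIO 9 and 10 the median was 0.26 (0.023 over all gene pairs), and 57 pairs were above 0.5. With the mean of each diet and array range removed it was 0.25 (0.019 over all gene pairs). The genes share libraries, and the list was drawn up from one cell type, so these medians carry no test.

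**Figure D4:**
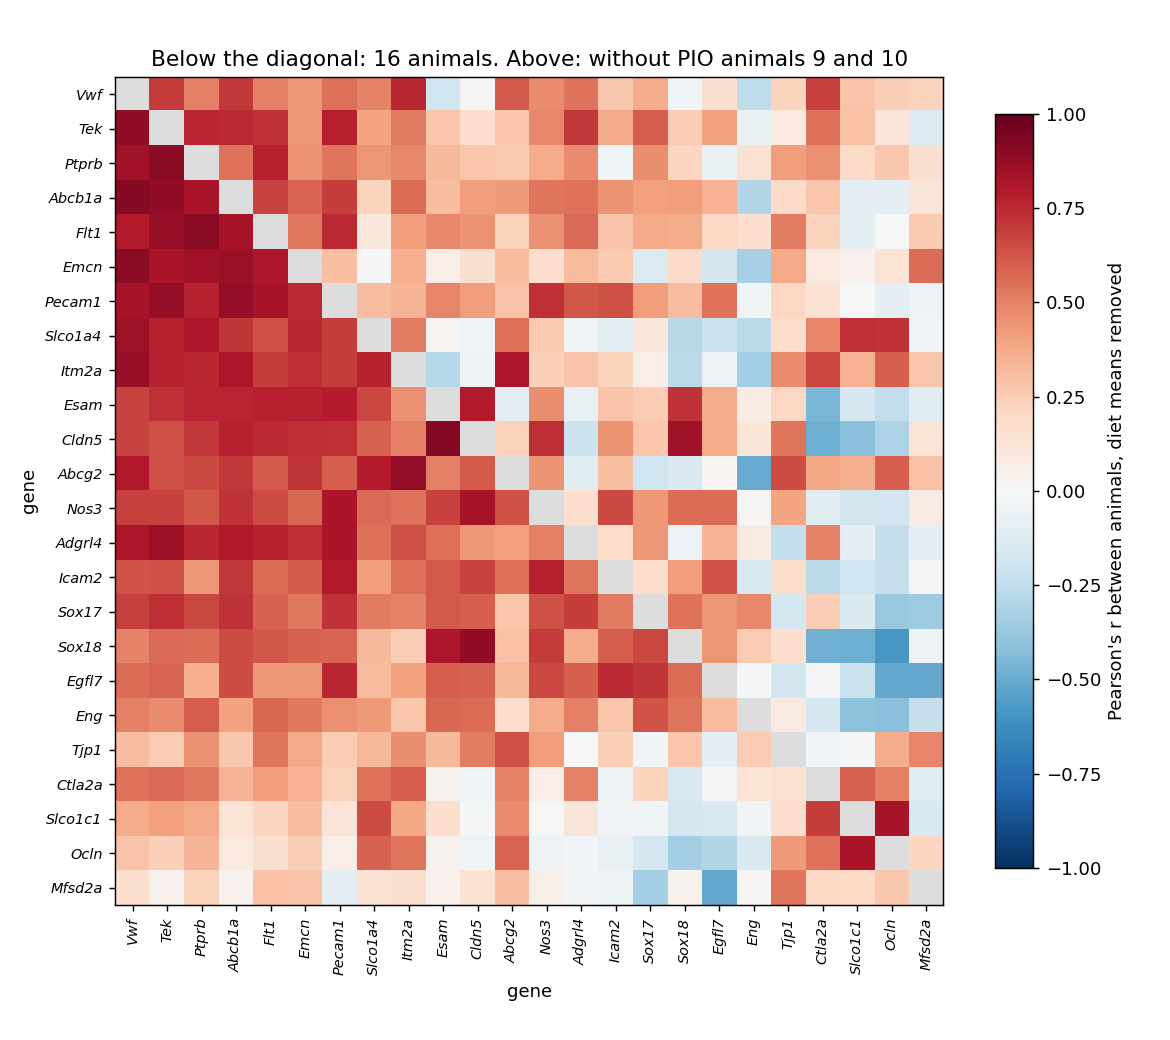
Pearson r between animals for each pair of the 24 tested genes, with diet means removed, over 16 animals below the diagonal and without PIO 9 and 10 above it. Below the diagonal the median of the 276 pairs is 0.55, and above it 0.26.

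The 5 highest pairs were Cldn5 with Esam, Abcb1a with Vwf, Tek with Ptprb, Flt1 with Ptprb and Emcn with Vwf. All p-values here are from 100000 permutations, for which 1e-05 is the smallest they can give, adjusted over the 276 pairs. Animals were shuffled across diets and array ranges, although 22 of the 24 genes had a larger SD with PIO. These p-values can therefore be too small. Cldn5 and Esam, both junction genes, had r = 0.92 and rho = 0.94 (permutation p = 1e-05 for both; adjusted 0.000276 and 0.00138). The 2 farthest animals of a pair are those farthest from the median of its first-named gene alone. The diet means were not recomputed without them. For Cldn5 the 2 farthest were PIO 9 and 10, and without these r was 0.83. Abcb1a and Vwf had r = 0.91 and rho = 0.89 (permutation p = 1e-05 for both; adjusted 0.000276 and 0.00138), and r = 0.79 without the 2 farthest.

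Tek and Ptprb, the receptor and its phosphatase, had r = 0.90 and rho = 0.82 (permutation p = 1e-05 and 0.0002; adjusted 0.000276 and 0.00345), and r = 0.80 without the 2 farthest. Flt1 and Ptprb had r = 0.90 and rho = 0.86 (permutation p = 1e-05 and 6e-05; adjusted 0.000276 and 0.00151). Without PIO 9 and 15, the farthest for Flt1, r was 0.83 with PIO 10 kept, and within arrays 10 to 24 it was 0.90. Emcn and Vwf had r = 0.90 and rho = 0.71 (permutation p = 4e-05 and 0.00255; adjusted 0.000849 and 0.0169). That r was 0.67 without the 2 farthest, 0.44 with the diet means recomputed without PIO 9 and 10, and 0.40 within arrays 10 to 24. The Emcn and Vwf relation thus rests in part on these 2 animals. With the diet means recomputed in the same way, the first 4 pairs had r of 0.71 to 0.79 without them.

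A few genes varied apart from the rest. Mfsd2a, Ocln and Slco1c1 correlated with the mean of the other 23 genes at r = 0.13, 0.24 and 0.31, while Vwf, Tek and Ptprb did at 0.94, 0.93 and 0.91. The lowest pair was Mfsd2a with Egfl7, at r = -0.51 and rho = -0.52 (permutation p = 0.0435 and 0.0400; adjusted 0.0769 and 0.0969). Next was Ocln with Sox18, at r = -0.34 and rho = -0.33 (permutation p = 0.192 and 0.207; adjusted 0.275 and 0.325). Without the 2 farthest animals these r were -0.64 and -0.32.

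Ocln and Slco1c1 correlated with each other, at r = 0.81 and rho = 0.84 (permutation p = 0.00013 and 9e-05; adjusted 0.0015 and 0.00207; 0.87 without the 2 farthest), a pair singled out after its values were seen. Both genes are also expressed by the choroid plexus epithelium. Choroid plexus markers stood far apart between animals: the mean of 12 such genes was below 0 in 6 animals, at -3.50 to -2.47, and at 0.55 to 2.68 in the other 10. The 6 animals with the lowest Ocln were those same 6, control 1, 4, 5 and 7 and PIO 9 and 13, at 7.00 to 7.56 against 7.72 to 8.38 in the others. The same 6 were lowest for Slco1c1, at 10.58 to 10.93. This was so for 2 of the 24 genes and for 0.889% of all genes, and Abcg2 and Ctla2a shared 5 of the 6. The part of choroid plexus tissue in the levels of Ocln and Slco1c1 was not tested. PIO 9 and 10 themselves differed in these markers, at -2.47 and 1.66.

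Genes outside the list that tracked the mean of the 24 most closely, over 16 animals with the diet means removed, were Per1 (r = 0.94), Gstt1 (0.93), Ier3 (0.91), Podxl (0.91) and Plekhj1 (0.90). Without PIO 9 and 10 these were 0.85, 0.83, 0.86, 0.77 and 0.61. Podxl encodes podocalyxin, a sialomucin that endothelial cells carry, and Per1 is a circadian clock gene that also responds to glucocorticoids. Per1 was at 8.75 and 8.93 in PIO 9 and 10 and from 8.99 to 9.52 in the others. These genes were picked from 12242 for their likeness, so the r values are descriptions.

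Of 35 listed ligands and pathway partners of vascular signalling, 33 were tested. Their mean stood at -0.045 and -0.076 in PIO 9 and 10, within the range of -0.12 to 0.14 of the others. With PIO in arrays 1 to 6, 4 of 33 were lower at an unadjusted p under 0.05 (3.73% of all genes) and 1 was higher. Within the PIO animals, 7 of 33 were lower in arrays 1 to 6 at that level (8.05% of all genes) and 2 were higher. PIO 9 and 10 lay below the other 14 animals for Cav1, the caveolin of endothelial vesicles, at 8.27 and 7.90 against 8.57 or more, for the TGF-beta receptor Tgfbr2, at 8.67 and 8.86 against 8.91 or more, and for the nuclear receptor Ppard, at 7.45 and 7.27 against 7.47 or more. These 3 of the 33 were named after their values were seen, and both animals lay below the other 14 in 265 of all 12266 genes (2.16%). None of the 33 was called in limma's test in any comparison. Between the diets 2 of 33 passed an unadjusted p under 0.05, both higher (7% of all genes in either direction), with a median of -0.00064. Angpt1, the angiopoietin that activates Tie2, measured from 4.68 to 6.16 in controls and from 5.64 to 6.91 with PIO, a difference of 0.83 (SE 0.22; limma adjusted p = 0.532). PIO 9 and 10 were at 6.88 and 5.64. Nrp2, a co-receptor for VEGF and semaphorins, was 0.14 higher (SE 0.06; limma adjusted p = 0.698).

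Between the array ranges 2 of 33 were lower and 3 higher at an unadjusted p under 0.05 (10.2% of all genes in either direction). Wnt7b, a ligand that maintains the barrier, was 0.28 higher in arrays 1 to 6 (SE 0.09; limma adjusted p = 0.301), and Tspan12, part of the Frizzled 4 receptor complex, was 0.20 higher (SE 0.07; limma adjusted p = 0.337). Reck, a co-receptor for Wnt7 ligands, differed by -0.30 (SE 0.12; limma adjusted p = 0.423). In the interaction 6 of 33 were below 0 and 1 above at that level (5.36% of all genes below). Dll4, a Notch ligand of endothelial tip cells, was the one above, at 0.67 (SE 0.16; limma adjusted p = 0.453). It measured 5.43 and 5.50 in PIO 9 and 10 against 4.95 to 5.12 in control 1 to 4, so it was high where most of the 24 genes were low. Control 8, of arrays 10 to 24, was higher still at 5.67. Adgra2, the Gpr124 partner of Reck, was at -1.17 (SE 0.32; limma adjusted p = 0.453) and Wnt7b at -0.47 (SE 0.14; limma adjusted p = 0.453).

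Apart from fits with the leptomeningeal list as a covariate, the part in the results of the cells that lie next to endothelium was not tested. Among their markers, those of pericytes were on average low in PIO 9 and 10. The mean of 9 tested pericyte markers of 12 was -0.25 and -0.42 there and -0.12 to 0.19 in the others, and 3 of the 9 were lower with PIO in arrays 1 to 6 at an unadjusted p under 0.05 (3.73% of all genes), among them Vtn (-0.99, SE 0.27; limma adjusted p = 0.502). Rgs5, a defining pericyte marker, was at 11.58 and 11.75 against 11.71 to 12.09, and Pdgfrb at 9.01 and 9.04 against 8.79 to 9.47. Both therefore stood at or near the low end in the 2 animals. The mean of 5 tested smooth muscle markers of 8 was -0.33 and -0.48, against -0.37 to 0.49, so PIO 9 lay inside the others' range. Of the 5, 3 were lower and 2 higher with PIO in arrays 1 to 6, where 60.6% of all genes were lower.

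Leptomeningeal and fibroblast markers, 10 of 10 tested, averaged -1.43 and -1.17 in PIO 9 and 10. They were as low in control 4, 5 and 7, at -1.55, -1.23 and -1.47, where the mean of the 24 endothelial genes was -0.075, -0.13 and 0.0058. All 10 were lower with PIO in arrays 1 to 6 (60.6% of all genes) and higher in arrays 10 to 24 (where 40.6% of all genes were lower). With the mean of these 10 as a covariate, the median interaction of the 24 genes was -0.40 and 0 of them were called, as were 0 of all genes. Microglial markers were lower with PIO in 10 of 10 in arrays 1 to 6 (60.6% of all genes), with a median of -0.39, and in 10 of 10 over all 16 animals (47.3% of all genes), with a median of -0.17. Their mean in PIO 9 and 10 was -0.11 and -0.19, inside the range of -0.34 to 0.38 of the others. Hippocampal neuron markers were at 0.083 and 0.33, against -0.70 to 0.26, and astrocyte markers at 0.0019 and 0.060, against -0.26 to 0.17. The lowest hippocampal means, -0.61 and -0.70, were those of PIO 14 and 15. Striatal markers averaged 0.70 and 0.92 there and -0.44 to 0.40 in the others. Thalamic markers averaged 1.12 in PIO 16 and -0.22 to 0.10 in the others. The endothelial genes averaged 0.23, 0.30 and 0.056 in PIO 14, 15 and 16. Apart from the striatal covariate below, the part of such tissue was not tested.

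**Figure D5:**
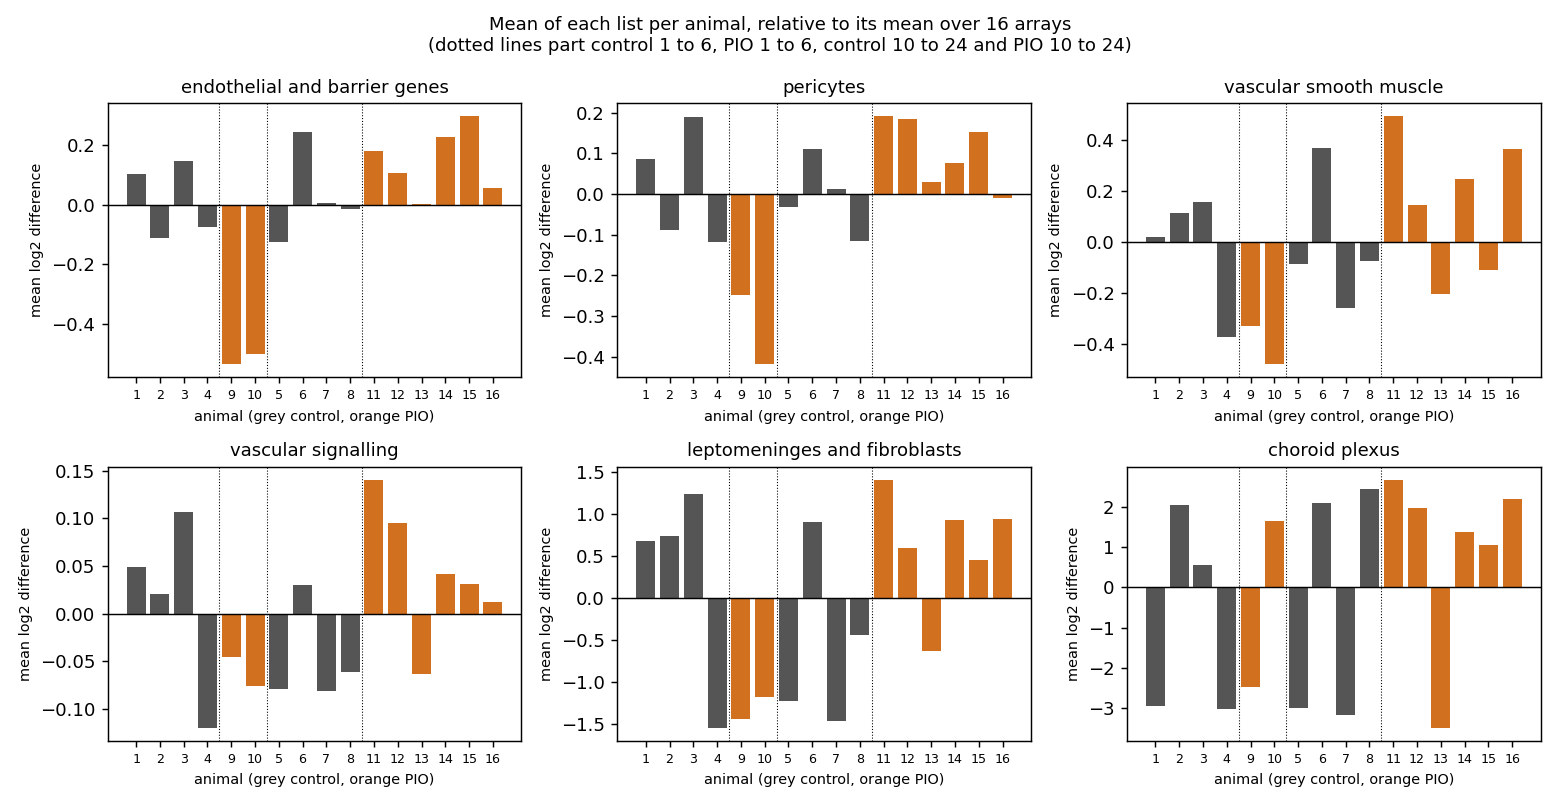
Mean of each gene list in each animal, as the mean log2 difference from each gene's mean over 16 arrays, with control animals in grey and PIO animals in orange and dotted lines between the combinations of diet and array number. The endothelial genes are at -0.53 and -0.50 in PIO 9 and 10 and between -0.13 and 0.30 elsewhere, whereas the leptomeningeal genes are at -1.43 and -1.17 there and at -1.55, -1.23 and -1.47 in control 4, 5 and 7.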

How the data were processed

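Values were log2 expression of Affymetrix mouse array probe sets as deposited. Per the submitters' processing notes, the tools were MAS5, GCRMA and R 2.7.1, named with no role, and which of these made the log2 values is not stated. A background model of the GCRMA kind can enlarge differences of dim probe sets. The log2 scale was read from the values, and depth has no counterpart on arrays. Of 45101 probe sets, 64 controls were left out, and 34945 had 1 gene symbol, 932 several and 9160 none here. In a RefSeq gene table, 34741 of the single-symbol probe sets were found by Entrez ID, and 0 symbols changed.

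Genes with a mean above the 40th percentile (3.58) were kept. limma 3.58.1 in R 4.3.3 (lmFit, eBayes) tested diet, array number with diet in the model, and the 4 combinations of both, with Benjamini-Hochberg adjustment over 12266 genes. The fits were tested on simulated data. Animals were grouped by the diet in their titles. A code in the array description forms 3 classes, with 5 control and 6 PIO arrays, 2 and 1, and 1 and 1, and was tried as a block. Every gene of the list is named. Values per animal are given for those with an unadjusted p under 0.05 in either main comparison or the smallest diet p of their role, with the 5 highest and 2 lowest pairs. The genes and lists were chosen with earlier results of these data known.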

Additional observations from a re-analysis of the deposited data

Results flagged for a closer look

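In 4 of 56 sets of 8 animals, 1 animal stood far from the other 7, where chance gives about 1 set in 20. Esam in control 2 was at 7.61, with the other controls at 7.97 to 8.23. Ctla2a in control 4 was at 6.35, with the other controls at 6.79 to 7.15. Kdr in control 7 was at 1.94 against 2.09 to 2.17, and Robo4 in PIO 9 was at 2.07 against 2.63 to 2.91, both below the filter. The diet difference of Emcn and of Vwf differed between array ranges by an interaction term in limma. For Emcn the difference between ranges was -1.19 (SE 0.15; adjusted p = 0.0150), from -1.11 in arrays 1 to 6 and 0.08 in arrays 10 to 24. For Vwf it was -3.16 (SE 0.48; adjusted p = 0.0453), from -2.17 and 0.99.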

How the results depend on the processing

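The diet comparison gave 0 called genes of the list in every setting tried, with a median difference from -0.14 with striatal markers as a covariate to 0.10 without PIO 9 and 10, and from -0.058 to 0.071 with 1 animal left out. The median, 0.025 as reported, thus changed sign between settings, and the differences of Icam2, Tek, Slco1a4, Ctla2a and Sox18 kept their direction in the settings run. Over all 24 genes, 16 changed sign in at least 1 setting, none of them past the threshold. Against array number, the list had 0 called in every setting, and the median ran from -0.35 to -0.21 with 1 animal left out. The count over all genes, 1, was 2 after quantile normalization and with the description code as a block, and 0 in the largest code class alone and with the striatal covariate. With 1 animal left out it ran from 0 to 3.

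Interaction calls moved most. Over all genes, 3 became 1 with no filter, after quantile normalization and with the striatal covariate, 0 in the largest code class alone and with the leptomeningeal covariate, and 7 with the choroid plexus covariate. Of the list, 2 became 1 with no filter, with the filter at the 60th percentile (which leaves Emcn untested), after quantile normalization and with the striatal covariate, and 0 in the largest code class alone and with the leptomeningeal covariate. With 1 animal left out the ranges were 0 to 4 and 0 to 2, and the median difference ran from -0.63 to -0.51. Vwf had adjusted p of 0.0955 with no filter, 0.0592 after quantile normalization and 0.0777 with the striatal covariate.

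For PIO against control in arrays 1 to 6, 1 called gene became 0 at the 60th percentile filter, 3 with the choroid plexus covariate and 2 with the striatal covariate, and ran from 1 to 3 with 1 animal left out. Between array ranges in PIO animals, 2 became 1 at that filter, in the largest code class alone and with the leptomeningeal covariate, and ran from 1 to 4. Where PIO 9 or 10 was left out, the lone animal was assumed to vary like the other groups. The cause of these moves was not tested, apart from genes the filter removed. For these comparisons within ranges the counts are of genes of the list, and no count over all genes was made in these settings.

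The median pairwise r, 0.55, was 0.50 with no means removed, 0.46 with diet and range means removed, 0.27 in arrays 10 to 24, 0.47 after quantile normalization, 0.46 as Spearman's rho, 0.26 without PIO 9 and 10, and 0.25 with the means of the 4 combinations removed. It ran from 0.47 to 0.57 with 1 animal left out. Settings for the interaction and within ranges, those without PIO 9 and 10, and the leptomeningeal covariate were chosen after seeing the data. No paired analysis was possible because the control and PIO animals share no subject number. The 4 genes below the filter were dim on these arrays, and a difference in them was not tested.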
